A study of Mus musculus with 6 samples.

Results

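The genes described here are 7 matrix metalloproteinases (*Mmp2*, *Mmp3*, *Mmp8*, *Mmp9*, *Mmp12*, *Mmp13* and *Mmp14*) and 3 tissue inhibitors of metalloproteinases (*Timp1*, *Timp2* and *Timp3*). They are 10 of the 16557 genes listed in the single-cell tables of 6 mouse rhabdoid tumors, taken by name and not for their level. Each was counted in tumor cells and in every kind of immune cell, tumor by tumor, with a gene that a table does not list taken as 0.

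Matrix metalloproteinases are zinc-dependent enzymes that cut collagens, gelatin, elastin and other proteins of the extracellular matrix. Most are secreted as inactive proenzymes and cleared of their propeptide outside the cell, whereas *Mmp14* encodes a protease anchored in the membrane that activates pro-MMP2 together with TIMP2. Timps bind the active site of these enzymes and block it. In tissues, collagenases and gelatinases come from fibroblasts and tumor cells as well as from neutrophils, macrophages and osteoclasts.

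All 6 tumors arose in C57BL/6 mice with loxP-flanked *Smarcb1* (Smarcb1 fl/fl), the gene of a core SWI/SNF subunit, after tamoxifen in utero switched on a Cre recombinase. MYC spinal tumors Rosini1172, Rosini1177 and Rosini1232 (19, 26 and 17 weeks of age) and the extracranial rhabdoid tumor (eRT) Rosini1148 (17 weeks in the label) came from Rosa26-cre mice, in which the promoter driving Cre is active in nearly all cells. The eRT Soxertini568_maxilar and Soxertini593 (29 and 22 weeks) came from Sox2-cre mice, so the subtype is partly confounded with the driver of Cre. Each tumor is 1 animal and 1 library, and no tissue without tumor was analysed here. Tumors were dissociated with Accutase, red cells were lysed and living cells were sorted on 7-AAD, without a gate for tumor or immune cells, before droplet capture with 10x Genomics 3′ chemistry. Transcripts are counted as unique molecular identifiers (UMIs) at their 3′ ends, and levels are given as CPM, the UMIs of a gene scaled to a total of 1000000 UMIs over the cells summed. Values for the 6 tumors follow the order in which they are named here.

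The files held 3841706 to 26184224 UMIs per tumor in 22163 cells kept. Of these, 2462 were tumor cells, taken from clusters whose *Smarcb1* level was at most 0.0754 of that expected from immune cells, 17258 were immune-like by their markers, and 2443 were neither. Tumor cells numbered 95, 17 and 1459 in MYC spinal tumors Rosini1172, Rosini1177 and Rosini1232 and 68, 204 and 619 in eRT Rosini1148, Soxertini568_maxilar and Soxertini593, so MYC spinal tumor Rosini1177 was thinly sampled. Which cells of Rosini1177 counted as tumor cells also depended on the clustering. A coarser clustering (resolution 0.4) gave 345, and clustering each tumor on its own gave none. In tumor cells, 3 UMIs correspond to 5.48, 64.9 and 0.375 CPM for MYC spinal and to 6.41, 4.78 and 1.01 CPM for eRT. Cells are listed by number and not by barcode in these tables, and barcodes shared between libraries could therefore not be counted.

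The members fall into a chromosomal group and scattered genes in the GENCODE annotation of GRCm38. *Mmp13*, *Mmp12*, *Mmp3* and *Mmp8* lie in this order within 295972 bases of chromosome 9 (chr9:7272514-7568485, all on the plus strand). *Mmp2* is at chr8:92827291-92853420, *Mmp9* at chr2:164940780-164955850 and *Mmp14* at chr14:54431612-54445364. *Timp1* (chrX:20870166-20874735) and *Timp3* (chr10:86300372-86349506) each lie inside a synapsin gene of the opposite strand, *Syn1* and *Syn3*. *Timp2* (chr11:118301069-118355740, minus strand) holds *Cep295nl* on its own strand, and the end of *Mmp12* overlaps *Mmp1b* on the opposite strand.

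The promoters of the members whose level differed between tumor and immune-like cells are printed here, since these are the genes that part the 2 kinds of cells. Each runs from 250 bases before to 50 bases after a start site, 5′ to 3′ on the strand of the gene, from RefSeq (GRCm38.p6). Capitals mark matches, on either strand, to the AP-1 motif TGANTCA, the TATA box TATAAA and the GC box GGGCGG.
*Timp1*, chrX:20869916-20870215, plus strand: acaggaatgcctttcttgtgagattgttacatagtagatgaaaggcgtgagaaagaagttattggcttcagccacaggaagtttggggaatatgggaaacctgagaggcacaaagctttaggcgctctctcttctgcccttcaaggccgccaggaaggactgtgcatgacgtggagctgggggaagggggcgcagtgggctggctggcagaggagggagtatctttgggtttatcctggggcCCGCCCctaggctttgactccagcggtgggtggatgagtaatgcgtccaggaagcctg
*Timp2*, chr11:118355362-118355661, minus strand: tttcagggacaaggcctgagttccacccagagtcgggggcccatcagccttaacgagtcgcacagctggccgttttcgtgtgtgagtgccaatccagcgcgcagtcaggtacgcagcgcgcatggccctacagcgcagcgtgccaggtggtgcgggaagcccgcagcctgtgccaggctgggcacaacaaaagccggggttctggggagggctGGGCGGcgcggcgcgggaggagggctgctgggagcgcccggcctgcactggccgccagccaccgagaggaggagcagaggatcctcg
*Timp3*, chr10:86300162-86300461, plus strand: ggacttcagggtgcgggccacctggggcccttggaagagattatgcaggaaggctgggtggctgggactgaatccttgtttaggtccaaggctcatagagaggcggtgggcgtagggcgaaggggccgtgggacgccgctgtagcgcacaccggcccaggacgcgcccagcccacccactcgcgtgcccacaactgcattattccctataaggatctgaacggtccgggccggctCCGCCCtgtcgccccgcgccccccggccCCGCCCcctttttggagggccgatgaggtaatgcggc
*Mmp8*, chr9:7558179-7558478, plus strand: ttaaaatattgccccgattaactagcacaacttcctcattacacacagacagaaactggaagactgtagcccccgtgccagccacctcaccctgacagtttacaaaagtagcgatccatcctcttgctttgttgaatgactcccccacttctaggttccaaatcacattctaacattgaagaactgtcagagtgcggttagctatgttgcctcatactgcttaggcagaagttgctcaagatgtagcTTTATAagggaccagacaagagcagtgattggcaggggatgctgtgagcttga
*Mmp12*, upstream start, chr9:7344147-7344446, plus strand: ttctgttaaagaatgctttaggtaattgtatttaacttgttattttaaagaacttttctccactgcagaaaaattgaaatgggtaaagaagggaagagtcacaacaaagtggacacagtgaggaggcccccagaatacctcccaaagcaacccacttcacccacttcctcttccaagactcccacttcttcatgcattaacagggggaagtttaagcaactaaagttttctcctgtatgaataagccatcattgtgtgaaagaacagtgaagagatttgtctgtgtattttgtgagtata
*Mmp12*, downstream start, chr9:7347124-7347423, plus strand: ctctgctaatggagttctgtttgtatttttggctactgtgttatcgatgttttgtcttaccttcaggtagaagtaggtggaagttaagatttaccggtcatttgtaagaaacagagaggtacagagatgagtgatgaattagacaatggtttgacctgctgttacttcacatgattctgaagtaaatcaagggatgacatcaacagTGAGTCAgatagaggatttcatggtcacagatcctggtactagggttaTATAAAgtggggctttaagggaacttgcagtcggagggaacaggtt

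Among all 32851 promoters of this length, 7.81% hold the AP-1 motif, 13.6% the TATA box and 35.7% the GC box. The 3 Timp promoters held 1, 1 and 2 GC boxes and neither of the other motifs. The *Mmp8* promoter held a TATA box alone. The upstream start of *Mmp12* held none of the motifs, and its downstream start held an AP-1 motif and a TATA box. Of the promoters not printed, those of *Mmp3* and *Mmp13* also held an AP-1 motif and a TATA box, and that of *Mmp14* held 2 adjoining GC boxes. *Mmp2* and *Mmp9* are named only. These matches describe the letters in each window and no binding was measured.

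The cells that carried most of a member's transcripts were strongly dependent on the gene, and for *Mmp9* on the tumor. Tumor cells, 0.296 to 21.7% of the cells of a tumor, held 62.6 to 89.3% of its *Timp1* UMIs and 57.1 to 94.1% of its *Timp3* UMIs. By contrast, neutrophil-like cells held 78.9, 50.6 and 43.2% of the *Mmp8* UMIs of MYC spinal tumors Rosini1177 and Rosini1232 and eRT Soxertini568_maxilar, where they were 22.1, 2.36 and 10.2% of the cells. *Mmp9* UMIs came from neutrophil-like cells in MYC spinal tumor Rosini1177 and eRT Soxertini568_maxilar (85.7 and 80.6%), from osteoclast-like cells in MYC spinal tumor Rosini1232 and eRT Rosini1148 (84.5 and 91.4%), and from tumor cells in eRT Soxertini593 (84.9%). MYC spinal tumor Rosini1172 held 19 *Mmp9* UMIs in all.

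To ask in which compartment each member is transcribed, UMIs were summed over the tumor cells and over the immune-like cells of each tumor and compared within tumors. Cells were clustered without the members and their gene family, so no member helped to name a cluster. Of the 10 members, 9 passed the filter on low counts and 5 were called at an adjusted p under 0.05, beside 32% of the 12135 genes tested. Higher in tumor cells were the 3 Timps (15.2% of all genes were higher) and lower were *Mmp8* and *Mmp12* (16.8% were lower). The median log2 fold change of the 9 members was -0.12, against -0.04 over all genes. Of the genes called, 47.4% were higher in tumor cells with TMM factors, and 59.4% without them, where the median of all genes moved to 0.21; the 5 members kept their direction and call. Macrophage markers, all or part of the list of 10, summed to 21.6 to 727 CPM in tumor cells and neutrophil markers to 6.08 to 16960 CPM (the highest in MYC spinal tumor Rosini1177), and their part in the values of tumor cells was not tested.

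**Figure D1:**
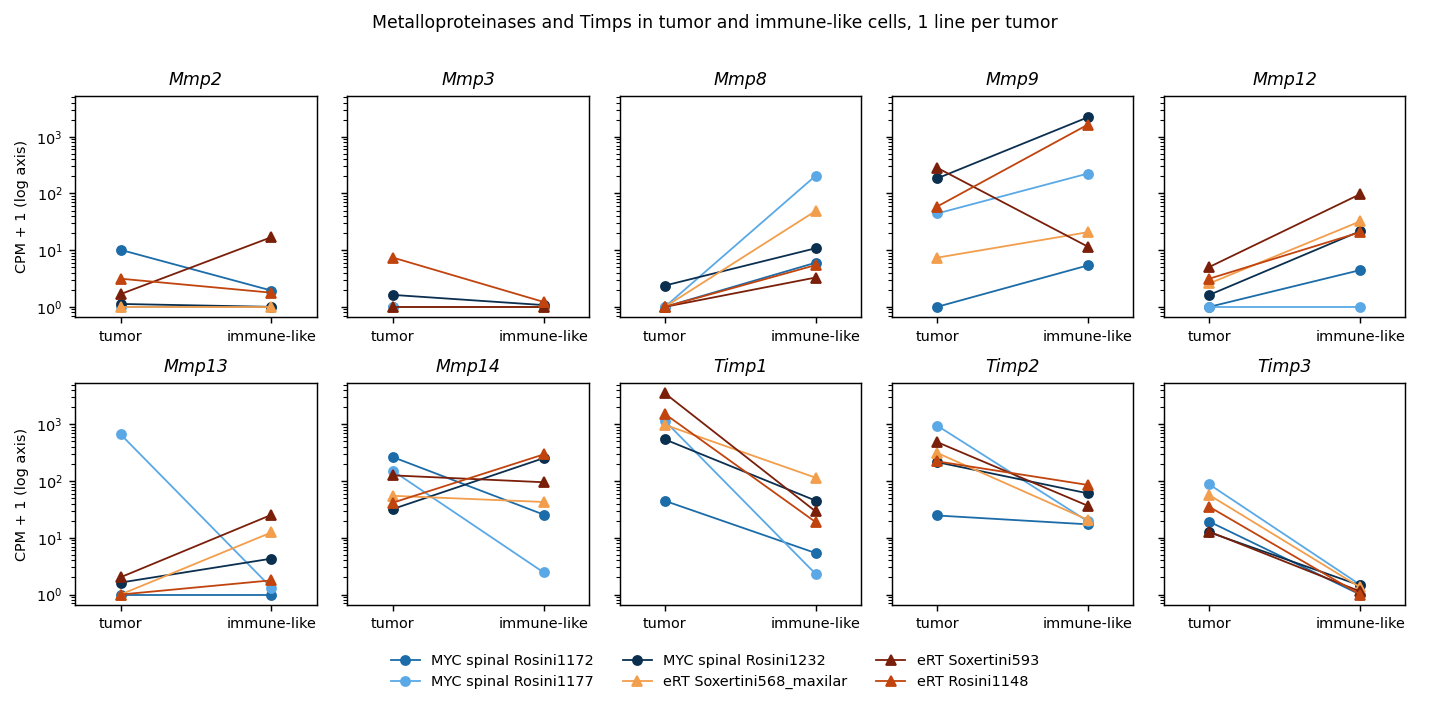
CPM plus 1 (log axis) of the 10 members in the tumor cells and the immune-like cells of each tumor; circles are MYC spinal tumors, triangles eRT, and each line joins the 2 kinds of cells of 1 tumor. All 6 lines fall from tumor to immune-like cells for *Timp1*, *Timp2* and *Timp3*, all 6 rise for *Mmp8*, and the lines of *Mmp14* and *Mmp9* cross.

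*Timp1*, which inhibits most secreted metalloproteinases, was found in the tumor cells of MYC spinal tumors Rosini1172, Rosini1177 and Rosini1232 with 43.9, 1147 and 543 CPM. The eRT Rosini1148, Soxertini568_maxilar and Soxertini593 had 1526, 982 and 3531 CPM. Immune-like cells held only 4.39, 1.30 and 44.2 CPM (MYC spinal) and 17.9, 114 and 28.2 CPM (eRT). The tumor cells were thus above the immune-like cells in 6 of 6 tumors, although the tumor cells of MYC spinal tumor Rosini1172 lay below the immune-like cells of eRT Soxertini568_maxilar. The log2 fold change was 5.11 (SE 0.84, adjusted p = 9.19e-04).

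*Timp1* UMIs were spread unevenly over tumor cells. In eRT Soxertini593, 574 of 619 tumor cells (92.7%) held at least 1, and in eRT Rosini1148 and Soxertini568_maxilar 35.3 and 42.6% did. In MYC spinal tumor Rosini1172, 21 of the 24 *Timp1* UMIs of tumor cells were in 1 cell, so that value rests on 3 positive cells. Among the MYC spinal tumor Rosini1232 tumor cells, a cluster of 97 cells led by *Bex1* and *Stmn2*, genes known from neurons, stood at 3405 CPM and the other 1362 tumor cells at 286 CPM. Among eRT, 38 tumor cells of Rosini1148 that carried the epithelial markers *Epcam*, *Krt8* and *Krt18* held 34.2 CPM, while 20 tumor cells of the same tumor in the main eRT cluster held 3327 CPM. Both splits within a tumor were wider than the range among the 3 eRT. With every cell thinned to 1000 UMIs, the share of tumor cells with *Timp1* was 1.05, 61.5 and 12.5% for MYC spinal, while eRT had 22.1, 29.0 and 73.2%. The T-like cells reached at most 3.16%.

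*Timp2*, the inhibitor that also takes part in activating pro-MMP2, was present in tumor cells with 23.8, 952 and 215 CPM (MYC spinal) and 222, 314 and 487 CPM (eRT). Immune-like cells held 16.3, 18.5 and 59.8 CPM (MYC spinal) and 84.6, 19.7 and 35.7 CPM (eRT). The difference had the same direction in 6 of 6 tumors and was small in MYC spinal tumor Rosini1172 (log2 fold change 2.61, SE 0.62, adjusted p = 0.00855). *Timp2* was not restricted to tumor cells: in eRT Rosini1148, macrophage- and osteoclast-like cells held 30.1 and 29.8% of its UMIs and tumor cells 9.43%.

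*Timp3*, a Timp that stays bound to the matrix, was scarce but nearly absent from immune-like cells. Its level in tumor cells was 18.3, 86.6 and 11.5 CPM (MYC spinal) and 34.2, 55.7 and 11.8 CPM (eRT), from 10, 4, 92, 16, 35 and 35 UMIs. The immune-like cells of all 6 tumors held 11 *Timp3* UMIs together and at most 0.488 CPM, so the groups did not overlap (log2 fold change 6.38, SE 0.63, adjusted p = 4.65e-05). The fibroblast-like cells of eRT Soxertini593 (74 cells, not counted as immune-like) held 110 CPM of *Timp3* and 3809 CPM of *Timp1*. Their cluster had 0.309 of the expected *Smarcb1* level (4 UMIs, 12.9 expected), just above the limit of 0.25 for tumor cells. At a limit of 0.5 these cells counted as tumor cells, and whether they are was not tested.

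*Mmp8*, the collagenase stored in neutrophil granules, was found in the tumor cells of MYC spinal tumor Rosini1232 alone, with 11 UMIs in 8 of 1459 cells (1.38 CPM). Immune-like cells held 5.01, 205 and 9.81 CPM (MYC spinal) and 4.45, 48.1 and 2.29 CPM (eRT). They were above tumor cells in 6 of 6 tumors (log2 fold change in tumor cells -4.32, SE 0.60, adjusted p = 3.22e-04). In MYC spinal tumor Rosini1172 and eRT Rosini1148, however, the immune-like level lay below what 3 UMIs are worth in tumor cells (5.48 and 6.41 CPM), so a difference was not detectable at this depth in these tumors taken singly.

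*Mmp12*, the macrophage elastase, gave 0, 0 and 0.625 CPM (MYC spinal) and 2.14, 1.59 and 4.05 CPM (eRT) in tumor cells. Immune-like cells held 3.45, 0 and 20.6 CPM (MYC spinal) and 19.7, 31.2 and 96.1 CPM (eRT). The gene is not listed for MYC spinal tumor Rosini1177, and immune-like cells were above tumor cells in the 5 other tumors, in Rosini1172 by less than 3 UMIs are worth in its tumor cells (log2 fold change in tumor cells -4.71, SE 0.42, adjusted p = 4.55e-05).

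*Mmp9* and *Mmp14* did not separate the compartments in the same direction in all tumors. *Mmp9*, a gelatinase, gave 0, 43.3 and 183 CPM (MYC spinal) and 57.7, 6.37 and 282 CPM (eRT) in tumor cells. In immune-like cells it gave 4.39, 224 and 2206 CPM (MYC spinal) and 1637, 19.7 and 10.5 CPM (eRT). It was lower in the tumor cells of 5 tumors and higher in those of eRT Soxertini593 (log2 fold change -2.65, SE 1.29, adjusted p = 0.147). Without eRT Soxertini593, the log2 fold change was -3.77 with an adjusted p of 7.05e-04. *Mmp14* gave 265, 152 and 31.1 CPM (MYC spinal) and 40.6, 54.1 and 125 CPM (eRT) in tumor cells. Immune-like cells held 24.7, 1.46 and 253 CPM (MYC spinal) and 294, 41.9 and 94.6 CPM (eRT; log2 fold change 0.19, SE 1.10, adjusted p = 0.931). It was higher in the tumor cells of 4 tumors and lower in those of MYC spinal tumor Rosini1232 and eRT Rosini1148. These tumors held 1570 and 536 osteoclast-like cells, and their macrophage-like cells stood at 175 and 189 CPM of *Mmp14*. The part of either kind in this direction was not tested.

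*Mmp13*, *Mmp2* and *Mmp3* were rare, and their values rest on few cells. *Mmp13*, a collagenase of bone and cartilage, had 31 UMIs (671 CPM) among the tumor cells of MYC spinal tumor Rosini1177, all in 1 cell, and 0 to 1.01 CPM in the tumor cells of the other 5 tumors. Over all 6 tumors its log2 fold change was -1.77 (SE 2.04, adjusted p = 0.569), and without MYC spinal tumor Rosini1177 it was -3.80 (adjusted p = 0.00643). *Mmp2*, the other gelatinase, had 9 UMIs in all tumor cells and 118 in the immune-like cells of eRT Soxertini593, of which 117 were in macrophage-like cells (log2 fold change -0.12, SE 2.16, adjusted p = 0.980). *Mmp3*, stromelysin, is listed for MYC spinal tumor Rosini1232 and eRT Rosini1148 only. Its 13 UMIs in all cells did not pass the filter, and 8 of them were in 3 tumor cells.

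Genes that work with the members were tested in the same fit. Of the matrix substrates, 7 of 8 were measured and 6 were higher in tumor cells, among them *Col3a1*, *Col1a2* and *Col1a1* (log2 fold changes 7.06, 7.79 and 7.53), fibrillar collagens, and *Sparc* (6.69), a collagen-binding protein. Of the 16 other metalloproteinases, 6 were measured and 3 were higher in tumor cells and none lower, with *Mmp23* at a log2 fold change of 4.31. Tumor cells held 36.6, 21.6 and 23.9 CPM of it (MYC spinal) and 27.8, 58.9 and 0.676 CPM (eRT), so eRT Soxertini593 lay apart from the rest. Of 10 adamalysins measured out of 13, 2 were higher and 4 lower, the latter including *Adam19* (-4.16), *Adam15* (-1.39) and *Adam17* (-1.14), the sheddase of TNF. *Lcn2* (-3.48), whose product forms a complex with MMP9, and *Thbs1* (-1.85) were also lower, and 2 of the 9 genes of activation, docking and clearance were higher. In the plasminogen system 1 of 5 measured genes was higher, and *Reck*, the inhibitor measured besides the Timps, was not called.

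Whether the difference between tumor and immune-like cells depended on the subtype was tested with an interaction term. None of 12135 genes was called (0%) by edgeR, with 361 at an unadjusted p under 0.05, and DESeq2 called 3. The 9 members had adjusted p = 1. Without MYC spinal tumor Rosini1232, *Mmp13* alone of the members was called (log2 difference -14.77, adjusted p = 0.00283), a value that holds the 1 cell of MYC spinal tumor Rosini1177.

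Between the tumor cells of the subtypes, no member was called either. Of 5714 genes tested by edgeR, 0 (0%) passed, 194 had an unadjusted p under 0.05, and DESeq2 called 21, and 5 members passed the filter on low counts. *Timp1* averaged 2013 ± 1342 CPM in eRT and 578 ± 552 CPM in MYC spinal tumor cells (SD, n = 3 each), and the range of eRT (982 to 3531 CPM) began below the highest MYC spinal tumor (1147 CPM). Its log2 fold change was 2.07 (SE 1.05, adjusted p = 1 with edgeR). *Timp2* averaged 341 ± 134 and 397 ± 490 CPM (SD, n = 3), and *Timp3* 33.9 ± 21.9 and 38.8 ± 41.5 CPM. *Mmp9* averaged 115 ± 147 and 75.5 ± 95.7 CPM, and *Mmp14* 73.3 ± 45.5 and 149 ± 117 CPM. The SD of these means was above the mean for *Timp2*, *Timp3* and *Mmp9* in MYC spinal and for *Mmp9* in eRT, and smallest against its mean for *Timp2* in eRT. Among all members the CPM of the subtypes overlapped except for *Mmp12* (1.59 to 4.05 CPM in eRT and 0 to 0.625 CPM in MYC spinal tumor cells, from 14 and 5 UMIs), which did not pass the filter. *Mmp12* is not listed for MYC spinal tumor Rosini1177, where 3 UMIs are 64.9 CPM. How many of all genes lacked overlap was not counted, so nothing is drawn from this value.

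Among immune-like cells, neutrophil-like cells were compared with macrophage- and monocyte-like cells in the 3 tumors that held at least 10 of each, MYC spinal tumors Rosini1177 and Rosini1232 and eRT Soxertini568_maxilar. Neutrophil granules are known to store MMP8 and MMP9. Of 7 members tested 5 were called, beside 14% of 8184 genes. *Mmp8* and *Mmp9* were higher (8.17% of all genes were higher), and *Mmp14*, *Mmp12* and *Timp1* were lower (5.8% were lower). Without pairing by tumor, 0 of 7183 genes and no member were called (838 genes at an unadjusted p under 0.05), with adjusted p = 0.24 for *Mmp8* and 0.276 for *Mmp9* by edgeR. DESeq2, with pairing, called *Mmp8*, *Mmp9* and *Mmp14* but neither *Mmp12* (adjusted p = 0.572) nor *Timp1* (0.145).

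**Figure D2:**
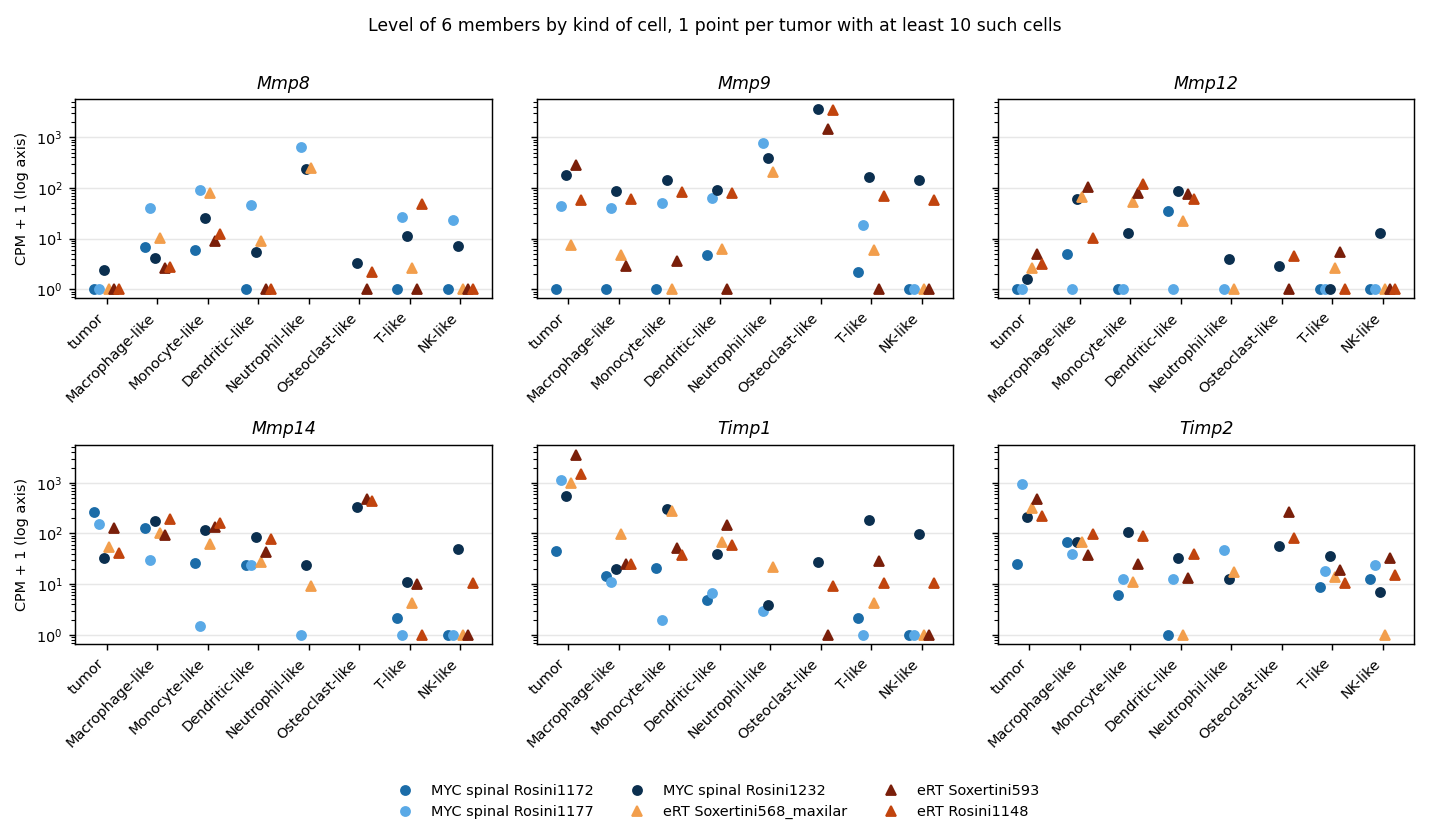
CPM plus 1 (log axis) of 6 members by kind of cell, with 1 point for each tumor that held at least 10 cells of that kind; circles are MYC spinal tumors and triangles eRT. The highest points are neutrophil-like cells for *Mmp8*, osteoclast-like cells for *Mmp9* (1442 to 3700 CPM) and *Mmp14*, macrophage-, monocyte- and dendritic-like cells for *Mmp12*, and tumor cells for *Timp1* and *Timp2*.

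The *Mmp8* level in neutrophil-like cells was 657, 236 and 247 CPM, in that order of tumors, and 87.1, 6.56 and 52.5 CPM in macrophage- and monocyte-like cells. The kinds did not overlap (log2 fold change 4.05, SE 0.48, adjusted p = 2.38e-05). *Mmp8* was not confined to neutrophil-like cells: a cluster of 139 monocyte-like cells of eRT Soxertini568_maxilar, led by *Chil3* and *Hp*, held 289 CPM, beside the 247 CPM of the neutrophil-like cells of that tumor. The 13 neutrophil markers summed to 70.3 to 18910 CPM in monocyte-like cells and to 132300 to 442600 CPM in neutrophil-like cells, and their part in the *Mmp8* of monocyte-like cells was not tested. In both MYC spinal tumors, the neutrophil-like cluster led by *Retnlg* held more *Mmp8* (1039 and 405 CPM) than the cluster led by *Camp* and *Ngp* (297 and 74.1 CPM). The first carried all 13 neutrophil markers, with *Camp*, *Ngp* and *Ltf* among them. The second carried 10, without *Cxcr2*, *Csf3r* and *Stfa2l1*. Neither cluster is named here by a stage of maturation.

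*Mmp9* stood at 783, 396 and 206 CPM in neutrophil-like cells and at 48.0, 94.0 and 1.40 CPM in macrophage- and monocyte-like cells (log2 fold change 4.55, SE 0.62, adjusted p = 7.52e-05). It followed *Mmp8* over the neutrophil-like clusters, with 1174 and 542 CPM in the cluster led by *Retnlg* and 415 and 256 CPM in that led by *Camp*. *Mmp14* was 0, 23.3 and 8.25 CPM against 1.88, 165 and 74.9 CPM (log2 fold change -2.40, SE 0.52, adjusted p = 0.00456). *Mmp12* had 1 UMI in all these neutrophil-like cells, against 0, 53.0 and 56.7 CPM (log2 fold change -4.27, SE 0.95, adjusted p = 0.00624).

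The call of *Timp1* was lost more often than the others. Its level was 1.98, 2.91 and 20.6 CPM against 1.41, 63.6 and 207 CPM, so MYC spinal tumor Rosini1177 did not share the direction, and the log2 fold change of -2.22 (SE 0.64, adjusted p = 0.0271) was called in 4 of 10 alternatives. *Mmp13* (log2 fold change -2.53, adjusted p = 0.196) and *Timp2* (0.49, adjusted p = 0.658) were not called. Without MYC spinal tumor Rosini1232, *Timp1* and *Mmp14* lost their call (adjusted p = 0.227 and 0.105).

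The scaling weighed on this comparison. Of the genes called, 58.5% were higher in neutrophil-like cells with TMM factors and 13.7% without them, where the median of all genes was -0.84 instead of -0.13. No called member changed direction under either scaling. Of the related genes, *Lcn2* (log2 fold change 6.04), *Mmp25* (4.11), the neutrophil membrane metalloproteinase, *Plaur* (1.56), the urokinase receptor, and *Adam8* (1.52) were higher. *Reck* was also higher (6.94), with 19.1, 20.4 and 0 CPM in neutrophil-like cells, and *Lrp1* (-1.75), a receptor that clears metalloproteinases, and *Fn1* (-1.66) were lower. These were the called genes of 22 list genes measured.

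Osteoclasts are the bone-resorbing relatives of macrophages and are known to express MMP9 and MMP14. Osteoclast-like cells were compared with macrophage- and monocyte-like cells in MYC spinal tumor Rosini1232 and eRT Rosini1148 and Soxertini593, of which eRT Soxertini593 held 10 such cells. Of 7 members tested 6 were called, beside 37% of 10215 genes (16.2% higher and 20.8% lower). The *Mmp9* level was 3700, 3463 and 1442 CPM in osteoclast-like cells and 94.0, 63.7 and 1.87 CPM in the others (log2 fold change 6.33, SE 0.39, adjusted p = 3.76e-55). In MYC spinal tumor Rosini1232, 1538 of 1570 osteoclast-like cells held an *Mmp9* UMI, in eRT Rosini1148 512 of 536, and in eRT Soxertini593 5 of 10.

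*Mmp14* was 336, 440 and 473 CPM in osteoclast-like cells and 165, 182 and 96.6 CPM in macrophage- and monocyte-like cells (log2 fold change 1.29, SE 0.27, adjusted p = 8.45e-06), without overlap. *Mmp12* was lower, at 1.94, 3.61 and 0 CPM against 53.0, 35.7 and 101 CPM (log2 fold change -4.06, adjusted p = 5.5e-34), and also without overlap. *Mmp13* (-3.56, adjusted p = 9.27e-08), *Timp1* (-1.41, adjusted p = 9.78e-07) and *Mmp8* (-1.51, adjusted p = 0.00481) were lower as well. In the 10 osteoclast-like cells of eRT Soxertini593, however, 3 UMIs are 67.6 CPM, and the 0 CPM of *Mmp12* lies under this limit. The limit is above the *Mmp13*, *Timp1* and *Mmp8* levels of its macrophage- and monocyte-like cells, so a difference in these genes was not detectable there. The calls of this comparison did not all hold. In cells of 500 or more genes and no more than 10% mitochondrial UMIs, the log2 fold changes were 0.03 for *Mmp13* and 0.40 for *Timp1* and neither gene was called. *Mmp14* also lost its call under this filter and at resolution 0.4. It was called in 10 of 12 alternatives and *Mmp12* in 11 of 12, neither with a change of direction. *Timp1* kept its call in 10 of 12 alternatives and *Mmp8* in 8 of 11, both losing it without pairing by tumor. *Timp2* was not called (0.05, adjusted p = 0.897), at 56.7, 79.2 and 270 CPM against 74.1, 95.3 and 35.4 CPM. The spread in this fit was taken as common to all genes (2 residual degrees of freedom, infinite prior degrees of freedom), so these p-values are smaller than 3 tumors would give gene by gene.

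**Figure D3:**
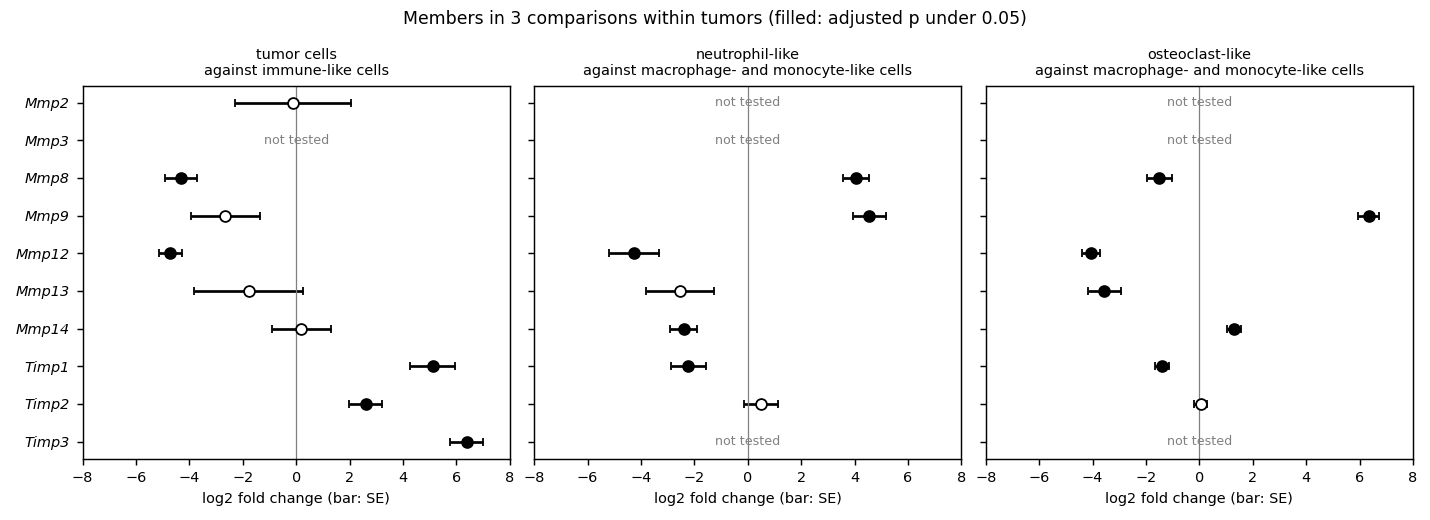
Log2 fold changes (points) with their standard errors (bars) of the members in the 3 comparisons made within tumors; filled points passed an adjusted p of 0.05, and members under the filter on low counts are marked as not tested. *Timp1* lies at 5.11 in tumor cells against immune-like cells, and *Mmp9* at 4.55 and 6.33 in neutrophil- and osteoclast-like cells against macrophage- and monocyte-like cells.

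Among the related genes, osteoclast-like cells were higher in *Itgb3* (log2 fold change 4.96) and *Itgav* (2.83), the integrin pair by which osteoclasts hold on to matrix, in *Furin* (1.94), the convertase that activates pro-MMP14, and in *Serpine2* (3.57). *Col1a2* was higher too (1.81), at 33.6, 1.20 and 22.5 CPM, far below the 547 to 1320 CPM of tumor cells. The value of eRT Soxertini593 is less than 3 UMIs are worth in its osteoclast-like cells. *Thbs1* (-3.30), *Fn1* (-2.29), *Plaur* (-1.87), *Adam17* (-1.70) and *Adam15* (-1.49) were lower. Of 22 list genes measured, 6 were higher and 11 lower.

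*Mmp12* and *Mmp13* were both found in macrophage- and monocyte-like cells, and *Mmp12* in dendritic-like cells as well. Macrophage-like cells held 3.90, 0 and 60.8 CPM of *Mmp12* (MYC spinal) and 9.45, 65.5 and 102 CPM (eRT). Within eRT Soxertini593, a macrophage-like cluster led by MHC class II genes held 154 CPM and a cluster led by *Fcrls*, *Cbr2* and *Mrc1*, a gene of tissue-resident macrophages, 8.34 CPM. In eRT Rosini1148 the monocyte-like cells (118 CPM) lay above the macrophage-like cells, with 80 of their 127 UMIs in 5 cells. Dendritic-like cells held 21.1 to 87.1 CPM in the 5 tumors where the gene is listed. This rests on 22 and 7 cells in MYC spinal tumor Rosini1232 and eRT Soxertini593. In the others it rests on 1 or 2 cells, with 9 UMIs in MYC spinal tumor Rosini1172, 3 in eRT Rosini1148 and 8 in eRT Soxertini568_maxilar. *Mmp13* reached 26.1 CPM in the macrophage-like cells of eRT Soxertini593 and 29.1 CPM in the monocyte-like cells of eRT Soxertini568_maxilar, from 172 and 26 UMIs, and at most 11.2 CPM in the macrophage-like cells of the other tumors. Of the 26 UMIs in those monocyte-like cells, 13 were in 1 cell and 23 in 5 cells.

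*Mmp2* in macrophage-like cells was found mainly in eRT Soxertini593. Its 117 UMIs in 2759 cells (17.8 CPM) were spread over the 4 macrophage-like clusters of that tumor at 13.9 to 27.8 CPM, almost always 1 UMI per positive cell, and the tumor cells of eRT Soxertini593 held 2 UMIs (0.676 CPM). In all 6 tumors together the macrophage-like cells held 124. For *Mmp14*, macrophage-like cells held 29.4 to 189 CPM in all 6 tumors, a narrower range than in tumor cells (31.1 to 265 CPM).

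In macrophage- and monocyte-like cells, eRT was compared with MYC spinal over all 6 tumors, and 0 of 9317 genes (0%) were called by edgeR (237 at an unadjusted p under 0.05, 1 called by DESeq2). The 7 members tested had adjusted p = 0.999. *Mmp12* averaged 64.3 ± 33.1 CPM in eRT and 18.6 ± 29.8 CPM in MYC spinal (SD, n = 3, log2 fold change 1.84, SE 1.34, edgeR). *Timp1* averaged 86.7 ± 104 and 26.8 ± 32.7 CPM and *Mmp9* 22.3 ± 35.8 and 47.4 ± 47.0 CPM, with SD near or above the mean in each. In neutrophil-like cells only eRT Soxertini568_maxilar could be set against MYC spinal tumors Rosini1177 and Rosini1232, with the lone eRT assumed to vary like the MYC spinal tumors and the spread taken as common to all genes (1 residual degree of freedom, infinite prior degrees of freedom). A difference between subtypes cannot be told apart there from one between single tumors. In this fit, 8.72% of 3508 genes were called (6.7% higher and 2.02% lower in eRT) and none of the 3 members tested, *Mmp9* (log2 fold change -1.41, SE 0.87, adjusted p = 0.426), *Mmp8* (-0.77, SE 0.84, adjusted p = 0.713) and *Timp2* (-0.82, SE 1.38, adjusted p = 0.802).

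The *Mmp9* UMIs of tumor cells were set beside genes of osteoclasts and leukocytes, chosen after their values had been seen. In droplet data free RNA of abundant cells can give UMIs in cells that do not express a gene. In eRT Rosini1148, *Mmp9* had 0.241 UMIs per UMI of *Ctsk*, the osteoclast collagenase cathepsin K, in tumor cells, 0.254 in osteoclast-like, 0.239 in macrophage- and monocyte-like, 0.25 in T-like and 0.185 in NK-like cells. Per UMI of *Acp5*, the osteoclast acid phosphatase, the values were less alike, at 0.193 in tumor cells, 0.281 in osteoclast-like, 0.0846 in macrophage- and monocyte-like, 0.184 in T-like and 0.113 in NK-like cells. After thinning to 1000 UMIs, 1 of its 68 tumor cells (1.47%, exact binomial 95% interval 0.0372 to 7.92%) and 4 of its 38 T-like cells (10.5%, 2.94 to 24.8%) held *Mmp9*, intervals that overlap. The part of free RNA in these UMIs was not tested. The median cell held 6142 UMIs among tumor and 2126 among T-like cells before thinning.

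In eRT Soxertini593, tumor cells had 119 *Mmp9* UMIs per *Ctsk* UMI and 59.7 per *Acp5* UMI, whereas its osteoclast-like cells had 0.190 and 0.15. After thinning, *Mmp9* was in 85 of 619 tumor cells (13.7%) and in 0 of 147 T-like cells, which by the exact binomial interval allows up to 2.48% (median 4448 and 1230 UMIs per cell as deposited). Of the 173 tumor cells with *Mmp9*, 168 also held *Col1a2* UMIs, 7 held *Ptprc*, the pan-leukocyte gene CD45, and 6 held *Ctsk*. In these tumor cells taken whole, 6 of 8 osteoclast markers summed to 208 CPM, against 19030 CPM in osteoclast-like cells. The markers summed to 219.7, 190.1, 276.5 and 549.1 CPM in the macrophage-, monocyte-, fibroblast- and T-like cells of this tumor. The highest cell had 58 *Mmp9* UMIs, and 49 cells had at least 5. Cells with *Mmp9* were deeper than those without (median 5558 and 3826 UMIs), and *Tyrobp*, a myeloid gene, was at 103 CPM in the former and 196 CPM in the latter. *Mmp9* lay in both tumor clusters of eRT Soxertini593, at 246 CPM in the 546 cells of the main one and 518 CPM in the 73 cells of the other.

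**Figure D4:**
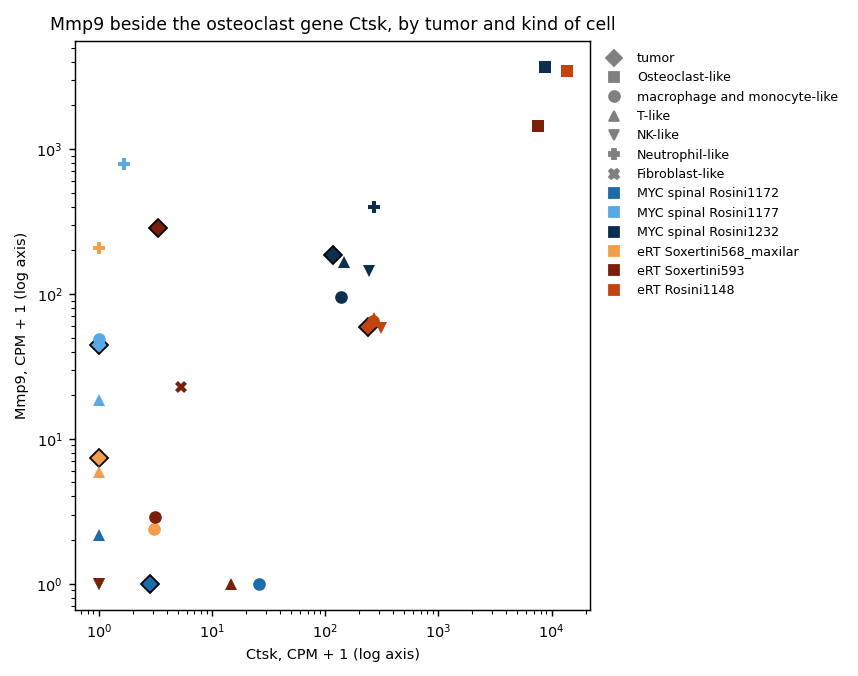
*Mmp9* against *Ctsk*, each as CPM plus 1 on a log axis, with 1 point for each kind of cell in each tumor; colours mark tumors, symbols kinds of cells, and tumor cells have a black edge. The tumor cells of eRT Rosini1148 lie among its T-, NK-, macrophage- and monocyte-like cells, and those of eRT Soxertini593 lie at 282 CPM of *Mmp9* and 2.37 CPM of *Ctsk*, apart from its osteoclast-like cells.

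In MYC spinal tumor Rosini1232, tumor cells had 1.56 *Mmp9* UMIs per *Ctsk* UMI, osteoclast-like cells 0.424 and T-like cells 1.14. Neutrophil-like cells had 1.46, macrophage- and monocyte-like cells 0.681 and NK-like cells 0.585. Per *Acp5* UMI, tumor, osteoclast-like and T-like cells had 1.08, 0.323 and 0.717. Neutrophil-like cells had 1.13 per *Acp5* UMI, macrophage- and monocyte-like cells 0.185 and NK-like cells 0.25. The T-like values rest on 33 *Mmp9* UMIs in 13 of 95 cells, with 13 UMIs in 1 cell. After thinning, 11.1% of tumor cells (9.54 to 12.8%, exact binomial 95% interval) and 6.32% of T-like cells (2.35 to 13.2%) held *Mmp9*, intervals that overlap. The median cell held 4726 UMIs among tumor and 1892 among T-like cells. The part of free RNA in the tumor-cell *Mmp9* of this tumor was not tested. An unnamed cluster of 1104 cells of the same tumor, led by *Fabp5* and *Lpl*, held 700 CPM of *Mmp9*, and progenitor-like cells of the granulocyte and monocyte lineage held 654 CPM.

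Over the 55 sums of a tumor and kind of cell with at least 20000 UMIs, the genes whose log2 CPM followed each member most closely were listed as a description, since the sums share libraries and depth. *Timp3* went with *Fermt2*, *Col6a1* and *Aqp5* (Pearson's r 0.922, 0.918 and 0.917) and *Timp1* with *Prrx1*, *Fbln2* and *Tnfrsf12a* (0.876, 0.868 and 0.864). *Timp2* went with *Dst*, *Cd109* and *Anxa5* (0.838, 0.835 and 0.804). *Mmp8* followed *Lcn2*, *Wfdc21* and *Slfn4* (0.893, 0.877 and 0.866), *Mmp9* followed *Ctsk*, *Atp6v0d2* and *Mt3* (0.803, 0.791 and 0.776), and *Mmp14* followed *Renbp*, *Ubtd1* and *Cd63* (0.842, 0.833 and 0.833). Osteoclast-like clusters were named with *Ctsk* and *Atp6v0d2* among the markers, so the r of *Mmp9* with them is not independent of the naming. *Mmp12* went with *Dpep2*, *Clec4n* and *Gm6377* (0.768, 0.749 and 0.736), *Mmp2* with *Olfml3*, *Ctsf* and *Gas6* (0.698, 0.648 and 0.599) and *Mmp13* with *Ibsp*, *Cilp* and *Vcam1* (0.820, 0.578 and 0.566), the last resting on few sums with UMIs. *Mmp8* and *Mmp9*, although both were high in neutrophil-like cells, had an r of 0.198 with each other, and *Mmp9* and *Mmp14*, both high in osteoclast-like cells, had 0.469.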

How the data were processed

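Single cells of 6 tumors were measured. The authors aligned reads to mm10 with Cell Ranger 2.0.2 and deposited UMI counts, not normalized, of the genes seen in at least 3 cells. No per-sample column was left unused (0). Cells under 200 genes or above 25% mitochondrial UMIs were left out. Seurat 5.3.0 integrated the tumors of each subtype (2000 variable genes without the members and lists, 30 dimensions, 20 neighbors, resolution 0.8). A cluster was named from at least 3 markers (detected in 10% of its cells, log2 fold of 1), and called tumor when not immune-like and its *Smarcb1* level was under 0.25 of that expected (at least 10 UMIs expected). Scrublet (scanpy 1.11.5) marked 21 cells and thus did not work here, so no doublet was removed.

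Counts were summed per tumor and kind (at least 10 cells) and tested with edgeR 4.0.16's quasi-likelihood test (TMM, filterByExpr, Benjamini-Hochberg over all genes tested, 0.05) in R 4.3.3, paired by tumor within tumors. The SE is the log2 fold change over the square root of F. CPM, and shares of cells, have exact 95% Poisson and binomial intervals, which cover counting error only, as does the value of 3 UMIs. Tests were checked on simulated counts. Likeness used log2(CPM + 10) of genes with a mean of at least 10 CPM. Alternatives included DESeq2 1.42.0, and other filters, scalings, resolutions and *Smarcb1* limits. List genes were named if called, up to 5 per direction with the smallest adjusted p. Members, lists and markers were chosen with earlier results of these data known. p-values rest on 3 to 6 tumors and on clusters rebuilt here.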

Additional observations from a re-analysis of the deposited data

Results flagged for a closer look

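Cells that no main comparison used, because they were neither tumor nor immune-like, held several members above the highest level of the tumors' compared kinds. The fibroblast-like cells of eRT Soxertini593 held 3809 CPM of *Timp1* (868 UMIs in 56 of 74 cells) beside 3531 CPM in its tumor cells, and 109.7 CPM of *Timp3* beside 11.8 CPM. An unnamed cluster of 202 cells of MYC spinal tumor Rosini1232, led by *Trf*, *Apod* and *Cryab*, held 1225 CPM of *Timp1* (569 UMIs in 56 cells) beside 542.7 CPM in tumor cells, 60.28 CPM of *Timp3* (28 UMIs in 9 cells) and 107.6 CPM of *Mmp13* (50 UMIs in 3 cells). The fibroblast-like and this unnamed cluster had 0.309 and 0.431 of the expected *Smarcb1* level, and both counted as tumor cells at a limit of 0.5.

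Other values came from very few cells. *Mmp13* reached 251.9 CPM in an unnamed cluster of 109 cells of MYC spinal tumor Rosini1232 led by *Mcpt8*, with all 109 UMIs in 1 cell, and *Timp3* stood at 16.18 CPM there (7 UMIs). *Mmp12* reached 152.6 CPM in 65 cycling cells of eRT Soxertini568_maxilar, with 45 UMIs in 1 cell. *Mmp9* reached 65.58 CPM in 21 cells of MYC spinal tumor Rosini1172, from 5 UMIs in 1 cell, against 4.39 CPM in its immune-like cells. No tests were made on these cells by themselves.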

How the results depend on the processing

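The 5 members called between tumor and immune-like cells kept their call and direction in each alternative that could be fitted (17 or 18 for each). The tumor cells of MYC spinal tumor Rosini1177 changed over these alternatives. With each tumor clustered on its own it had none, and 5 tumors were compared. At resolution 0.4 it had 345 instead of 17, and *Mmp13* turned to 0.19. Without pairing by tumor, 2130 genes were called between tumor and immune-like cells instead of 3883. DESeq2 called 21 genes between subtypes in tumor cells, 1 in macrophage- and monocyte-like cells, 180 in neutrophil-like cells and 3 for the difference between subtypes, where leaving out each tumor gave 0 to 2 genes and 0 to 1 members. For neutrophil-like cells, 3 members were called by DESeq2, 3 members and 391 genes with at least 500 genes per cell and at most 10% mitochondrial UMIs, 2674 genes without TMM factors, 0 members and 0 genes without pairing (2381 genes had an unadjusted p under 0.05 with it), and 2 to 5 members and 379 to 686 genes without 1 tumor. For osteoclast-like cells, DESeq2 called 2096 genes, the stricter cell filter 2 members and 2516 genes (with *Mmp13* turning to 0.034 and *Timp1* to 0.40), resolution 0.4 1839 genes, no pairing 3 members and 1613 genes, and leaving out 1 tumor 1904 to 3365 genes. The cause was not tested. Of the single levels in tumor cells, 15 moved by more than the SD over the tumors of their subtype after thinning or the stricter filter and 105 did not. The comparison of neutrophil-like cells between subtypes could not be fitted without a tumor, with the stricter filter or with the driver of Cre as a covariate. No paired analysis was possible because the subtypes share no replicate numbers, other than the pairing of kinds of cells within a tumor. Depth limits the tumor cells of MYC spinal tumor Rosini1177 most, where 3 UMIs are 64.9 CPM.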
